A study of Mus musculus with 12 samples.

Results

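Of the 18269 genes measured above a low level in 2 classes of mouse retinal ganglion cell, 149 (0.816%) changed differently after optic nerve crush in one class than in the other. Members were chosen by the crush effect in Opn4 cells minus the crush effect in HB9 cells, tested for every gene that reached an RPKM (reads scaled by gene length and library total) of 1 in 3 or more of the 12 libraries, and kept at an adjusted p under 0.05. A crush effect is the mean of 3 crush libraries minus the mean of 3 sham libraries on the log2(RPKM + 1) scale. The difference of effects is the Opn4 effect minus the HB9 effect, so a negative value means a lower effect in Opn4 cells. It was lower in Opn4 cells for 96 members (0.525% of genes tested) and higher for 53 (0.29%). All p-values are from limma with Benjamini-Hochberg adjustment over the 18269 genes, and errors of log2 values are its standard errors with n = 3 libraries per group.

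Opn4 cells came from mice of genotype Opn4CreERT/+;R26-tdTomatof/f, whose melanopsin locus drives a tamoxifen-activated Cre that switches on a red reporter, and they stand for intrinsically photosensitive ganglion cells. HB9 cells came from HB9:GFP mice, whose green transgene marks ON-OFF direction-selective ganglion cells. Both lines were given 0.124 mg tamoxifen per g body weight on each of 5 days, the first being postnatal day 21, and had crush or sham surgery at postnatal day 42. Retinas were taken 3 days after surgery. Cells were picked singly by hand, 10 from each animal, and 3 such pools made 1 library of 30 cells. Cre and the red reporter were present in the Opn4 line alone, so line and cell class cannot be told apart. Each of the 4 groups had 3 libraries of amplified RNA, so the p-values measure the spread between these pools. In such pools, fewer cells that express a gene and less RNA per cell cannot be told apart.

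Optic nerve crush severs the axons of ganglion cells. Injured neurons turn on a program of stress and growth genes, driven in part by kinases that signal along the axon and by transcription factors of the AP-1 and ATF families. Intrinsically photosensitive ganglion cells detect light through their own photopigment and are known to survive this lesion better than most ganglion cells, while direction-selective cells respond to movement along preferred axes.

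Levels of the 2 genes that name the classes went with the labels. Opn4, the photopigment melanopsin, lay between 1255 and 1773 RPKM in the Opn4 libraries, and between 0.158 and 24.3 RPKM in the HB9 libraries, and Mnx1, the gene also called HB9, was at 20.9 to 41.7 RPKM in HB9 sham and at 0.144 RPKM or less in Opn4 libraries. Scaling totals ranged from 15104446 to 28195798 reads, and each library held 15021 to 16514 genes at an RPKM of 1 or more. Opn4 libraries were less alike, with median within-group SDs (log2) of 0.47 in sham and 0.51 in crush pools, where HB9 pools had 0.33 and 0.34. Opn4 sham 1 and Opn4 crush 1 stood apart on the third principal component. Without both, 145 genes passed, of which only 95 were among the 149 members. Summed RPKM of 17 rod photoreceptor genes was 1487 to 2788 in Opn4 sham, 1761 to 4264 in Opn4 crush, 767 to 1135 in HB9 sham and 747 to 1151 in HB9 crush libraries. With the rod level as a covariate 138 genes passed, of which 125 were members.

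Most members were genes that moved after crush in HB9 cells and less or not in Opn4 cells. Sorted by the larger of the 2 class effects, 82 members belonged to a rise in HB9 cells, 44 to a fall in HB9 cells, 9 to a rise in Opn4 cells and 14 to a fall in Opn4 cells. The HB9 effect passed the threshold in 130 members, where 6.42% of all genes tested did, and the Opn4 effect in 30, where 1.11% did. These effects are parts of the difference that chose the members, so the counts are a description. Of the members, 76 rose in HB9 cells with no call in Opn4 cells, and 42 fell there with no call in Opn4 cells. In all, 8 members rose in both classes, among them Cdkn1a, Cox6a2, Ecel1, Atf3, Slc7a5, Rnh1 and Sqstm1, and 1 member, Ralyl, was called in neither. Crush and sham libraries did not overlap in 138 members in HB9 cells (31.5% of all genes tested) and in 71 in Opn4 cells (14.7%). The 2 effects had opposite signs in 80 members and the same sign in 59. The rest had an effect of 0 in a class, such as Ucn and Cdsn in Opn4 cells. Choice by the difference of effects favours opposite signs, and the share over all genes was not counted. The size of the difference ran from 0.84 to 8.98 with a median of 2.72 on the log2 scale, and it was over 2 in 105 members. The plot of both crush effects places these patterns around the line of equal effects.

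**Figure D1:**
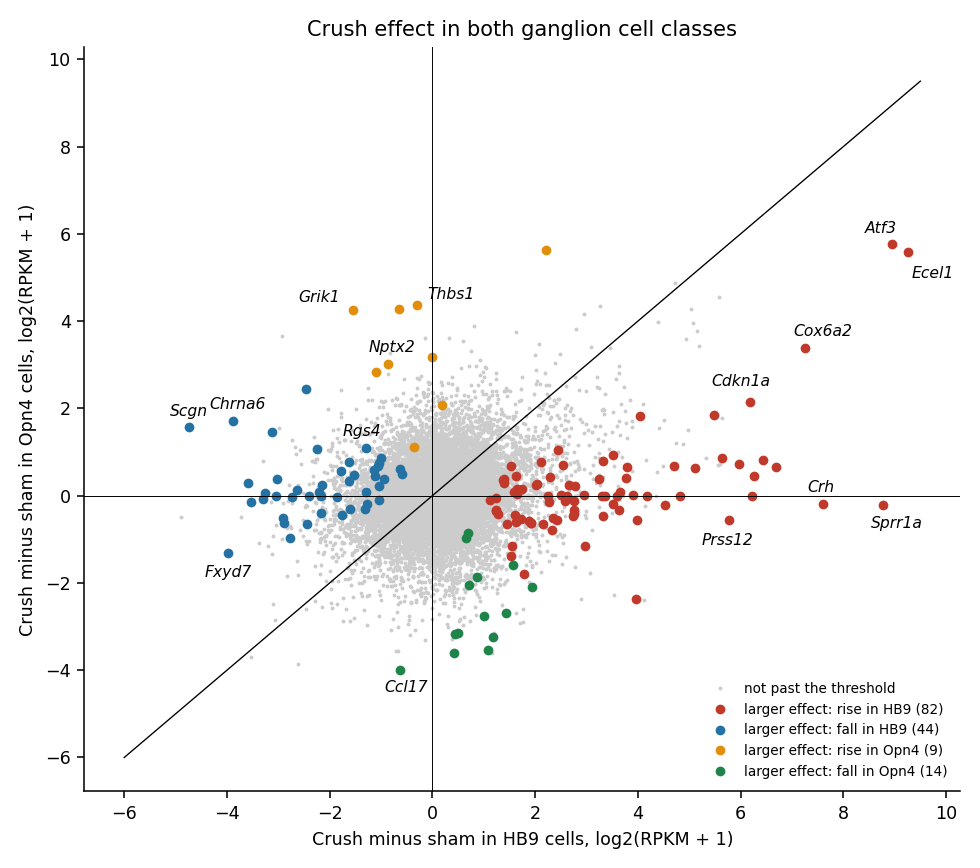
Crush minus sham in Opn4 cells (vertical axis) against crush minus sham in HB9 cells (horizontal axis), both in log2(RPKM + 1), with 1 point per gene tested; coloured points are the 149 members by pattern, grey points did not pass, and the diagonal marks equal effects. Most members lie along the horizontal axis, 82 coloured as a rise and 44 as a fall in HB9 cells, while Thbs1 and Grik1 lie high on the vertical axis.

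The median difference over all genes tested was -0.13, against -0.02 with each library rescaled by the median of its ratios to the mean library. Under that scaling 76 genes had a higher and 86 a lower effect in Opn4 cells, and the HB9 effect alone moved from 702 higher and 470 lower to 611 higher and 671 lower. Just inside the threshold lay Cgref1 (-2.43, adjusted p = 0.048), Gm11578 (-3.96, 0.0489) and Cd1d2 (-2.47, 0.0498). Among the genes just outside lay Nars (-1.10, 0.0511) and Ahr (2.54, 0.0515).

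Promoters of 4 members in the HB9 rise are shown, because each belongs to a group described here and holds a match to a motif of factors that injury activates. They are the 250 bases before the transcription start from RefSeq (GRCm38.p6), written 5′ to 3′ on the strand of the gene, with motif matches in capitals. They were chosen after their matches were seen. Sprr1a lies at chr3:92485882-92486131, Atf3 at chr1:191183334-191183583 and Ucn at chr5:31138896-31139145, all on the minus strand, and Hspa5 at chr2:34771840-34772089 on the plus strand.
Sprr1a: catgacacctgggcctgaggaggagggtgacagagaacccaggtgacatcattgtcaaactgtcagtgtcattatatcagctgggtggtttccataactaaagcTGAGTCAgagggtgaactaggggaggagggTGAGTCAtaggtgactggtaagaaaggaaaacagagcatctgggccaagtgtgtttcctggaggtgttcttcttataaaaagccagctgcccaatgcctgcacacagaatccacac
Atf3: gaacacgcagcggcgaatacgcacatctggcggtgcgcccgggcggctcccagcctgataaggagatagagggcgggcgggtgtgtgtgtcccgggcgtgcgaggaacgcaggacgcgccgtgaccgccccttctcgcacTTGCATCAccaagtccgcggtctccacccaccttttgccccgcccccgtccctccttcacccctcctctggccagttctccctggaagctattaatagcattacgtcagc
Ucn: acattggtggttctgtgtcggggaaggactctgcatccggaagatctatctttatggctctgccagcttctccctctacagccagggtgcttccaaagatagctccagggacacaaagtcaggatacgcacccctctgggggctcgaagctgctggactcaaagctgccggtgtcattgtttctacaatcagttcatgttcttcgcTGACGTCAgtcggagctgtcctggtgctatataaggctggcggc
Hspa5: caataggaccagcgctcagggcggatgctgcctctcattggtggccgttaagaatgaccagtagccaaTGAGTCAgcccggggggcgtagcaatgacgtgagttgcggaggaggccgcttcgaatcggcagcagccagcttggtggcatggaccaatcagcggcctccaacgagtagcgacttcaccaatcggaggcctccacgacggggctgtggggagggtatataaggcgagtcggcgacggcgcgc
The capitals mark an AP-1 motif (TGANTCA) at 2 places before Sprr1a and at 1 place before Hspa5, an ATF4-C/EBP composite motif (TGATGCAA, here on the opposite strand) before Atf3, and a cyclic-AMP response element (TGACGTCA) before Ucn. Both strands were searched, and the 3 motifs share no match in these promoters. Of the 149 members, 98 had a promoter in the table. Matches were counted by gene, over all promoters listed for it. An AP-1 match stood in 13 of these genes (13.27%), against 7.819% of the 27025 genes with a promoter of the same length. Those genes were not limited to the genes tested. The cyclic-AMP element was in 4 (4.082%, against 1.769%) and the composite motif in 3 (3.061%, against 0.9177%). All 3 composite matches were in genes of the HB9 rise, which held 58 of the 98 genes. AP-1 matches stood in 8 of these 58 (13.79%) and in 5 of the 30 genes of the HB9 fall with a promoter (16.67%). A match is a description of letters, not a binding site.

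Among genes linked to axon regeneration was Sprr1a, the member with the lowest difference of effects. Sprr1a (ENSMUSG00000050359, chromosome 3, 92483952 to 92485895) encodes a small proline-rich protein of the cornified envelope that injured neurons with growing axons also make. It stood at 1249.8, 814 and 122 RPKM in the HB9 crush libraries, and at 0.657 RPKM or less in the other 9 libraries. The HB9 crush libraries lay far above all others and HB9 crush 3 was the lowest of them. The Opn4 effect was -0.20 ± 0.70 and the HB9 effect 8.77 ± 0.70, a difference of -8.98 ± 0.99 (adjusted p = 0.00263). The call held without any 1 library (adjusted p up to 0.012) but not with voom on the recovered reads (adjusted p = 0.467).

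Of 36 tested genes in a list of regeneration-associated genes, 8 had a lower effect in Opn4 cells and 0 a higher one. The list's median effect was 0.63 in Opn4 cells and 1.96 in HB9 cells, where the medians over all genes were -0.02 and 0.11. In HB9 cells 21 of the 36 rose and 0 fell (3.84% and 2.57% of all genes), and in Opn4 cells 4 rose and 0 fell (0.69% and 0.421%). Apart from Sprr1a, the 8 were Crh, Lgals3, Flrt3, Ecel1, Atf3, Gadd45a and Cd44. Other growth genes did not pass the test of the difference. Gap43, a growth cone protein, gave a difference of -0.71 ± 0.25 (adjusted p = 0.253), and Sox11, a transcription factor of growing neurons, one of -1.25 ± 0.92 (adjusted p = 0.628). Jun, the AP-1 subunit central to the axon injury response, rose by 4.34 ± 0.21 in Opn4 cells and by 3.26 ± 0.21 in HB9 cells, with a difference of 1.08 ± 0.30 (adjusted p = 0.131). None of the 21 tested genes in the AP-1 and immediate early list passed in either direction, with a median effect of 0.99 in Opn4 cells and 1.08 in HB9 cells.

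Atf3 (chromosome 1, 191170296 to 191183340), a stress-induced transcription factor that partners with Jun, rose in both classes but further in HB9 cells. After sham it was at 0.2 RPKM or less in all 6 libraries. After crush it stood at 77.9, 56.4 and 43.4 RPKM in Opn4 cells and at 661, 486 and 473 RPKM in HB9 cells, so that no library of one class reached the other. The effects were 5.76 ± 0.31 and 8.94 ± 0.31, a difference of -3.18 ± 0.44 (adjusted p = 0.00742). Ecel1 (chromosome 1, 87147655 to 87156521), a membrane endopeptidase induced by nerve injury, followed the same course. Its Opn4 crush libraries held 26.5, 101 and 59.7 RPKM and its HB9 crush libraries 1047, 548 and 509 RPKM, with 0.53 RPKM or less after sham. The effects were 5.58 ± 0.46 and 9.26 ± 0.46 (difference -3.68 ± 0.65, adjusted p = 0.0207). Both differences were measured from a sham level near 0, where the pseudocount of 1 weighs most. With a pseudocount of 0.1 the adjusted p was 0.107 for Atf3 and 0.153 for Ecel1, and with voom on recovered reads 0.611 and 0.844. Atf3 held without any 1 library (adjusted p up to 0.0373), whereas Ecel1 did not without HB9 sham 2, HB9 crush 1 or HB9 crush 2 (up to 0.0722).

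Crh and Ucn, both ligands of corticotropin-releasing hormone receptors, appeared in injured HB9 cells alone among the 4 groups measured. Crh (chromosome 3, 19693401 to 19695396) was at 398, 474 and 43.7 RPKM in HB9 crush libraries and at 0.301 RPKM or less in the other 9, with all 3 Opn4 crush libraries listed at 0. Ucn, or urocortin (chromosome 5, 31138063 to 31138829), was listed at 0 in those 9 libraries and stood at 85.1, 196 and 23.9 RPKM after crush in HB9 cells. As with Sprr1a, HB9 crush 3 held the least of both and still lay far above every other group. The difference of effects was -7.80 ± 1.01 for Crh (adjusted p = 0.005) and -6.23 ± 0.85 for Ucn (adjusted p = 0.00679). Neither call rested on 1 library (adjusted p up to 0.0226 and 0.026), and neither was kept by voom on recovered reads (0.408 and 0.152).

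Another neuropeptide of the same direction was Adcyap1 (chromosome 17, 93199422 to 93205485), the precursor of the peptide PACAP and a marker of photosensitive ganglion cells. It stood at 616, 442 and 769 RPKM in Opn4 sham and at 918, 519 and 701 RPKM in Opn4 crush libraries, which overlapped. HB9 cells held 38.2, 49.9 and 38.2 RPKM after sham and 323, 292 and 263 RPKM after crush. The rise in HB9 cells was 2.77 ± 0.23 against an effect of 0.22 ± 0.23 in Opn4 cells, a difference of -2.55 ± 0.33 (adjusted p = 0.005) that passed in all 22 alternatives. Of the 26 tested neuropeptide genes, 3 had a lower effect in Opn4 cells and 1 a higher one. The latter was Chga, chromogranin A of secretory granules, which fell by 1.04 ± 0.13 in HB9 cells, with an effect of -0.10 ± 0.13 in Opn4 cells (difference 0.93 ± 0.18, adjusted p = 0.0329). Chga lost its call without any 1 library other than Opn4 sham 1 and Opn4 crush 1 (adjusted p up to 0.106; other settings up to 0.0621).

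**Figure D2:**
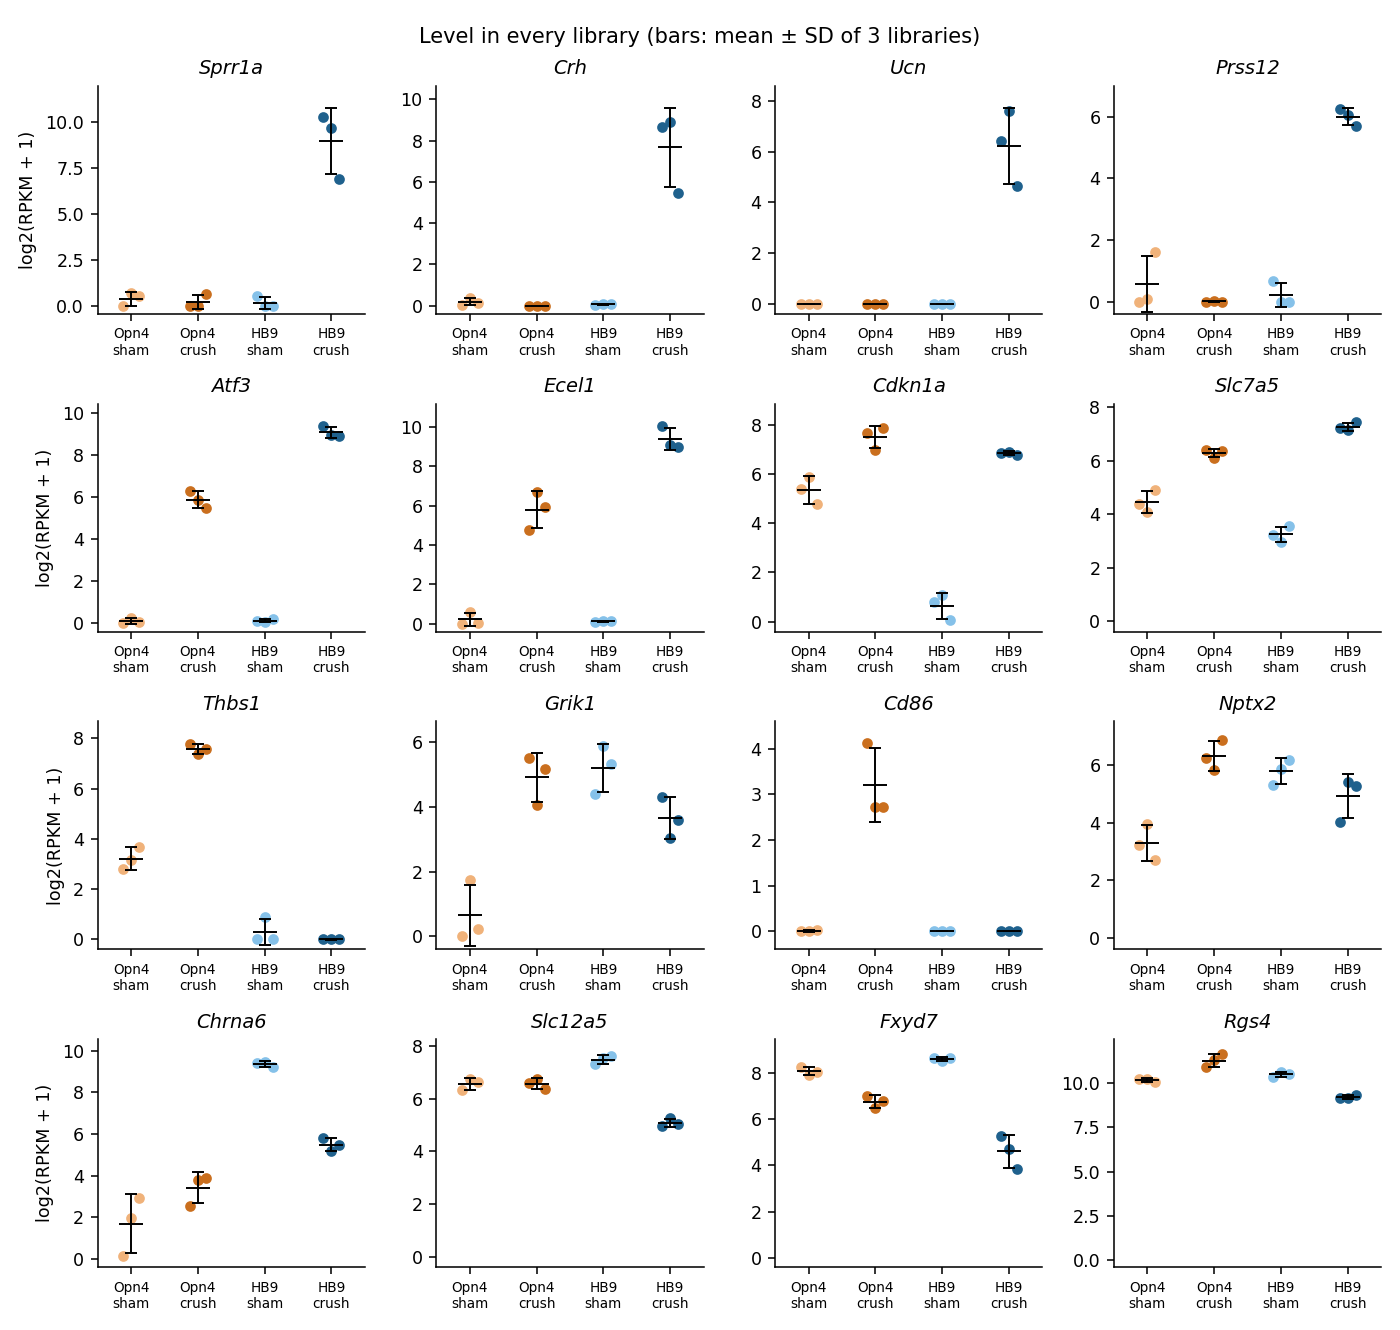
Level of 16 members in every library, in log2(RPKM + 1), with 1 point per library and bars for the mean and SD of 3 libraries in each of the 4 groups. The top row is near 0 outside HB9 crush, the second row rises in both classes, the third row shows members with a higher effect in Opn4 cells, and the bottom row shows members that fell after crush in HB9 cells.

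The genes Prss12, Crabp2 and Cdsn also rose in HB9 cells and were not called in Opn4 cells. Prss12, the secreted protease neurotrypsin, was at 74.2, 65.7 and 51 RPKM in HB9 crush libraries and at 2.07 RPKM or less in the other 9. Its difference of effects was -6.33 ± 0.69 (adjusted p = 0.00263). Crabp2, which carries retinoic acid to its nuclear receptor, reached 70.7, 67.7 and 105 RPKM in HB9 crush libraries against 2.92 RPKM or less elsewhere (difference -5.81 ± 0.73, adjusted p = 0.005). Cdsn, the adhesion protein of corneodesmosomes in skin, was listed at 0 in all 6 Opn4 libraries and stood at 60.3, 27.3 and 36.3 RPKM in HB9 crush libraries (difference -4.82 ± 0.68, adjusted p = 0.00742). In each of these genes the HB9 crush libraries did not overlap any other group. With Sprr1a, Crabp2 and Cdsn made up the 3 members among 11 tested genes of the cornified envelope and retinoid binding list, whose median effect was 0.11 in Opn4 and 1.07 in HB9 cells. None of the 3 calls in this paragraph rested on 1 library (adjusted p up to 0.012, 0.0226 and 0.0263). Voom on recovered reads ended those of Prss12 (0.0572), Crabp2 (0.123) and Cdsn (0.18), and a pseudocount of 0.1 those of Crabp2 (0.0572) and Cdsn (0.0727).

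Genes of varied function shared this pattern. Taf7l, a paralog of a subunit of the general transcription factor TFIID, was at 24, 13.8 and 32.4 RPKM in HB9 crush libraries and at 0.559 RPKM or less in the other 9 (difference -4.74 ± 0.58, adjusted p = 0.00434). Cyb5r2, a cytochrome b5 reductase, was listed at 0 in all 6 Opn4 libraries and reached 29.1, 21.4 and 15.3 RPKM in HB9 crush libraries (difference -4.17 ± 0.57, adjusted p = 0.00679). Lix1 was at 2.08, 2.39 and 2.26 RPKM in HB9 sham and 52.4, 61.5 and 38.9 RPKM in HB9 crush libraries. In Opn4 cells it stood at 29.1, 8 and 8.9 RPKM after sham and at 16.3, 7.7 and 4.62 RPKM after crush, which overlapped (difference -4.54 ± 0.72, adjusted p = 0.0127). Taf7l and Lix1 passed in all 22 alternatives. Cyb5r2 passed without any 1 library (adjusted p up to 0.0316), but not with a pseudocount of 0.1 (0.0644) or voom on recovered reads (0.118). Chosen after their values were seen, Steap1, Mef2b and Ndc80 also passed in all 22 alternatives. Ndc80, a kinetochore protein of dividing cells, was at 8.71, 12.5 and 8.29 RPKM in HB9 crush libraries and at 0.137 RPKM or less in the other 9 (difference -3.35 ± 0.49, adjusted p = 0.00766).

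Gpnmb, Lgals3, Cd68 and Cd44, which phagocytes also make, rose in HB9 cells. Gpnmb, a glycoprotein of lysosomes, was at 4.92, 4.27 and 0 RPKM in Opn4 sham and 7.69, 4.17 and 2.87 RPKM in Opn4 crush libraries. HB9 libraries held 0.0132 RPKM or less after sham and 66.8, 80.1 and 120.0 RPKM after crush (difference -5.62 ± 0.88, adjusted p = 0.0127). Lgals3, the lectin galectin-3, stood at 48, 66.3 and 45.6 RPKM in HB9 crush libraries and at 2.91 RPKM or less in the other 9 (difference -4.47 ± 0.78, adjusted p = 0.0197). Cd68, a lysosomal membrane protein used as a macrophage marker, stood at 92.9, 116 and 125 RPKM in HB9 crush libraries. Among the other 9 it was at 2.15 RPKM or less except for 13 RPKM in Opn4 crush 1 (difference -6.04 ± 1.20, adjusted p = 0.0382). Cd44, a hyaluronan receptor, was at 8.52, 9.98 and 4.25 RPKM in HB9 crush libraries and 0.755 RPKM or less elsewhere (difference -2.87 ± 0.58, adjusted p = 0.04).

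Summed RPKM of 19 microglia and macrophage genes was 217 to 249 in HB9 crush libraries, against 38.9 to 63.1 in HB9 sham, 32.1 to 60.5 in Opn4 sham and 50.6 to 63.1 in Opn4 crush libraries. Cd68 itself gave 92.9 to 125 RPKM of that sum in HB9 crush libraries. Tmem119, Fcer1g, Ctss, C1qb, C1qc and Ccl4 were listed at 0 in all 12 libraries, and P2ry12 and C1qa in 11. Only 5 of the 19 genes were tested, and 1 of them, Cd68, passed. Gpnmb kept its call without any 1 library (adjusted p up to 0.0403), but not with a pseudocount of 0.1 (0.0736) or voom (0.18). Lgals3 lost its call without HB9 sham 2, HB9 sham 3 or HB9 crush 2 (up to 0.0647) and under other settings (up to 0.373). Cd68 lost its call without any 1 library other than Opn4 crush 1 (up to 0.0966; other settings up to 0.177), and Cd44 without any other than HB9 crush 3 (up to 0.113; other settings up to 0.171).

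The summed level of Muller glia and astrocyte genes was also higher after crush in both classes. Summed RPKM of 17 such genes was 432 to 481 in HB9 sham and 855 to 2277 in HB9 crush libraries, against 586 to 640 in Opn4 sham and 848 to 1070 in Opn4 crush libraries. Clu, the secreted chaperone clusterin, which neurons also make, gave 195 to 248 RPKM of that sum in HB9 sham and 705 to 1987 RPKM in HB9 crush libraries. Of the markers in the list, Aqp4 and Sox9 were listed at 0 in all 6 HB9 libraries, Gfap in 11 of the 12 libraries, and Slc1a3 was at 0.00885 RPKM or less in HB9 libraries. Rlbp1, by contrast, was at 2.63, 2.3 and 3.72 RPKM in HB9 sham and at 14.7, 18.2 and 31.5 RPKM in HB9 crush libraries. Opn4 crush 1 held the most of several markers among the 12 libraries. It was at 86.6 RPKM for Rlbp1, 73 for Apoe, 14.7 for Slc1a3, 6.28 for Aqp4 and 1.54 for Sox9. Of 9 tested genes of the list 0 passed the test of the difference. In HB9 cells 2 rose (Clu and Vim) and 1 fell (Dkk3), where 3.84% and 2.57% of all genes did. Their part in the HB9 rise was not tested.

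The amino acid and protein-folding stress genes gave another set of this direction. Of 31 tested genes of the unfolded protein and integrated stress responses, 7 had a lower effect in Opn4 cells and 0 a higher one. The list's median difference was -1.40, against -0.13 over all genes, from median effects of 0.58 in Opn4 and 2.11 in HB9 cells. In HB9 cells 16 of the 31 rose and 0 fell (3.84% and 2.57% of all genes). In Opn4 cells 3 rose and 0 fell (0.69% and 0.421%). The 7 were the amino acid transporter genes Slc7a3, Slc7a5 and Slc3a2, the asparagine synthetase gene Asns, the stress sensor gene Sesn2, and Herpud1 and Hspa5 of the endoplasmic reticulum.

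Slc7a5 and Slc3a2 encode the light and heavy chain of one transporter of large neutral amino acids, and both passed in all 22 alternatives. Slc7a5 was at 19.6, 15.9 and 29.2 RPKM in Opn4 sham, 82.3, 67.3 and 81.2 RPKM in Opn4 crush, 8.23, 6.84 and 10.7 RPKM in HB9 sham and 148, 142 and 174 RPKM in HB9 crush libraries. It rose in both classes, by 1.82 ± 0.25 and 4.03 ± 0.25 (difference -2.21 ± 0.36, adjusted p = 0.0149). The order of the classes turned: HB9 sham libraries lay below and HB9 crush libraries above all Opn4 libraries of the same surgery. Slc3a2 was at 119, 65.7 and 67.4 RPKM in Opn4 sham, 125, 185 and 123 RPKM in Opn4 crush, 46.5, 35.8 and 29.6 RPKM in HB9 sham and 374, 348 and 402 RPKM in HB9 crush libraries. Its effects were 0.80 ± 0.25 (adjusted p = 0.172) and 3.32 ± 0.25 (difference -2.51 ± 0.36, adjusted p = 0.00763). Slc7a3, a carrier of basic amino acids, was at 3.92 to 35.9 RPKM in Opn4 libraries, with overlap between sham and crush. HB9 libraries held 0.436, 0.172 and 1.72 RPKM after sham and 73.6, 81.1 and 91.2 RPKM after crush (difference -4.76 ± 0.87, adjusted p = 0.0261). That call ended without Opn4 sham 2, HB9 sham 1, HB9 sham 2 or any 1 HB9 crush library (adjusted p up to 0.0797; other settings up to 0.113).

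Hspa5, the chief chaperone of the endoplasmic reticulum (BiP), was at 389, 395 and 445 RPKM in Opn4 sham and 429.8, 478 and 451 RPKM in Opn4 crush libraries. It was at 151, 258 and 211 RPKM in HB9 sham and at 677, 611 and 628 RPKM in HB9 crush libraries. HB9 cells thus began below and ended above Opn4 cells, with effects of 0.15 ± 0.17 and 1.66 ± 0.17 (difference -1.51 ± 0.24, adjusted p = 0.0135, passing in all 22 alternatives). Sesn2, which senses leucine for the kinase mTORC1, was at 18.2 to 38.9 RPKM in all 6 Opn4 libraries and at 19 to 23.6 RPKM in HB9 sham. Only the HB9 crush libraries were higher, at 161, 138 and 125 RPKM (difference -2.42 ± 0.40, adjusted p = 0.0154, and 0.0505 without HB9 crush 1). Asns stood at 1033, 899 and 830.4 RPKM in HB9 crush and at 190.3 to 261 RPKM in HB9 sham libraries, against 172 to 244 RPKM in Opn4 crush and 100.5 to 132 RPKM in Opn4 sham libraries. Its difference was -1.34 ± 0.26 (adjusted p = 0.0359), and that of Herpud1, which acts in the disposal of misfolded proteins, -1.85 ± 0.38 (adjusted p = 0.0452). Asns lost its call without any 1 library other than Opn4 sham 1, Opn4 crush 1 and HB9 sham 1 (up to 0.107), and Herpud1 without any other than Opn4 sham 1 and Opn4 crush 2 (up to 0.102).

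Enzymes that load transfer RNAs with amino acids moved alongside. Wars, the tryptophanyl-tRNA synthetase gene (chromosome 12, 108860030 to 108894174), shared the smallest adjusted p of all genes tested with Rgs4. Its Opn4 libraries held 138, 130.0 and 137 RPKM after sham and 87.8, 98.2 and 114 RPKM after crush. Its HB9 libraries held 169, 181 and 164 RPKM after sham and 559, 468 and 541 RPKM after crush. The HB9 rise was 1.60 ± 0.14 and the Opn4 effect -0.44 ± 0.14 (adjusted p = 0.189), although its 2 Opn4 groups did not overlap either. The difference was -2.04 ± 0.20 (adjusted p = 0.00191). Gars, the glycyl-tRNA synthetase gene, was at 211 to 218 RPKM in Opn4 sham, 277 to 303 RPKM in Opn4 crush, 339 to 416 RPKM in HB9 sham and 1081 to 1236 RPKM in HB9 crush libraries (difference -1.18 ± 0.17, adjusted p = 0.00766). Both passed in all 22 alternatives. They were the 2 members among 21 tested synthetase genes, of which 20 had a difference below 0, with a median of -0.88. Of all 18269 genes tested, 10364 had a difference below 0, and the median was -0.13. In HB9 cells 13 of the 21 rose and 0 fell (3.84% and 2.57% of all genes). In Opn4 cells 2 rose and 0 fell (0.69% and 0.421%).

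**Figure D3:**
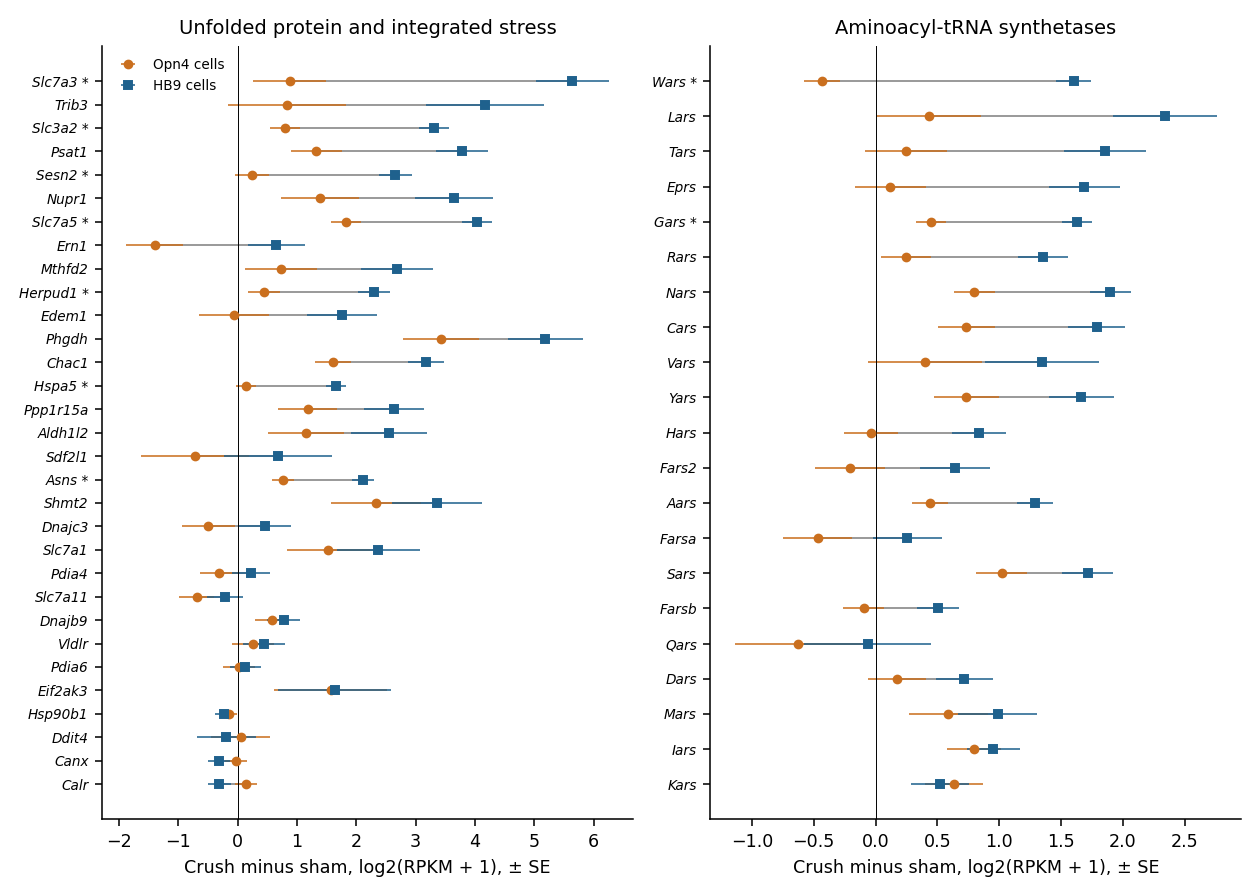
Crush minus sham, in log2(RPKM + 1) with ± SE, for each tested gene of the unfolded protein and integrated stress list (left) and of the aminoacyl-tRNA synthetase list (right), in Opn4 cells (circles) and HB9 cells (squares); an asterisk marks a member. HB9 squares lie to the right of Opn4 circles for 27 of 31 and 20 of 21 genes, most widely for Slc7a3 at the top left. The HB9 effect was the higher one in 10364 of all 18269 genes tested.

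Genes outside the fixed rule, chosen after their values were seen, added to this picture. Hspa9, the mitochondrial chaperone mortalin, was at 109 to 182 RPKM in the 6 Opn4 libraries and at 112 to 130.2 RPKM in HB9 sham, against 588, 421 and 522 RPKM in HB9 crush libraries (difference -1.78 ± 0.26, adjusted p = 0.00776). Its processed copy Hspa9-ps1 passed too, with a like profile, and the counting of reads between the pair is uncertain. Cpe, the carboxypeptidase that trims peptide hormones, was at 1254, 1251 and 1262 RPKM in Opn4 sham and 1649, 1571 and 1601 RPKM in Opn4 crush libraries. HB9 cells held 1223, 1085 and 1164 RPKM of it after sham and 2970.1, 2925 and 3097 RPKM after crush (difference -1.02 ± 0.13, adjusted p = 0.0052). The replicates of Cpe were close, and its groups did not overlap within either class. Hspa9 and Cpe passed in all 22 alternatives.

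The growth arrest genes Cdkn1a and Gadd45a had a lower effect in Opn4 cells. Cdkn1a, the cell cycle inhibitor p21 and a target of p53, stood at 41.3, 57.7 and 26.1 RPKM in Opn4 sham and 199.5, 125 and 231 RPKM in Opn4 crush libraries. In HB9 cells it was at 0.741, 1.13 and 0.0453 RPKM after sham and at 115, 119 and 107 RPKM after crush. It rose in both, by 2.15 ± 0.35 in Opn4 and 6.19 ± 0.35 in HB9 cells (difference -4.04 ± 0.49, adjusted p = 0.00434), and the HB9 crush libraries ended just below the Opn4 crush libraries. The call held without any 1 library (adjusted p up to 0.014) but not with voom on recovered reads (0.0736). Gadd45a, a growth arrest gene, gave a difference of -3.13 ± 0.62 (adjusted p = 0.038), which was lost without any 1 library other than Opn4 sham 2 and Opn4 crush 2 (up to 0.105). Cdkn1a was the 1 member among 17 tested genes of the p53 target list. The members Gadd45a and Sesn2 were not in that list, so its count leaves them out.

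Fewer members were led by the Opn4 response. Thbs1 (chromosome 2, 118111876 to 118127133) encodes thrombospondin 1, a secreted matrix protein that binds cell surface receptors and promotes synapse formation. It rose from 5.89, 8.03 and 12 RPKM to 219.5, 166 and 191 RPKM in Opn4 cells. All 6 HB9 libraries held 0.855 RPKM or less. The Opn4 effect was 4.36 ± 0.41 (adjusted p = 0.00027) and the HB9 effect -0.29 ± 0.41 (adjusted p = 0.787), a difference of 4.66 ± 0.57 (adjusted p = 0.00434). The call held without any 1 library (adjusted p up to 0.0163) but not with a pseudocount of 0.1 (0.0727) or voom on recovered reads (0.233). Thbs1 was the 1 member among 16 tested thrombospondins and thrombospondin receptors, whose median effects were 0.11 in Opn4 and -0.20 in HB9 cells.

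Grik1 (chromosome 16, 87896196 to 88056176), a kainate-type glutamate receptor subunit, rose in Opn4 cells from a level that was lower than in HB9 cells after sham. It was at 0, 2.34 and 0.163 RPKM in Opn4 sham and 44.6, 15.7 and 34.5 RPKM in Opn4 crush libraries. HB9 cells held 20, 57.8 and 38.5 RPKM after sham and 18.8, 7.18 and 11.1 RPKM after crush, so the crush libraries of the classes overlapped. The effects were 4.26 ± 0.58 (adjusted p = 0.00343) and -1.54 ± 0.58 (adjusted p = 0.15), a difference of 5.80 ± 0.81 (adjusted p = 0.00742). Nptx2, a neuronal pentraxin that clusters glutamate receptors at synapses, went from 8.27, 14.6 and 5.56 RPKM to 75.2, 55.6 and 116 RPKM in Opn4 cells. Levels in HB9 cells were 38.1, 57.7 and 71.9 RPKM after sham and 15.4, 41.9 and 37.8 RPKM after crush, which overlapped (difference 3.89 ± 0.61, adjusted p = 0.0127, passing in all 22 alternatives). Grik1 held without any 1 library (adjusted p up to 0.0317) but not with voom on recovered reads (0.0661).

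Grik1 is also made by bipolar cells, as is Scgn, a calcium-binding protein. Scgn was at 11.9, 3.94 and 0 RPKM in Opn4 sham, 42.9, 5.69 and 4.69 RPKM in Opn4 crush and 35.5, 43.2 and 10.7 RPKM in HB9 sham libraries, and was listed at 0 in all 3 HB9 crush libraries. Its difference was 6.31 ± 1.32 (adjusted p = 0.0479). It lost the call without any 1 library other than Opn4 sham 1 and Opn4 crush 3 (up to 0.133; other settings up to 0.118). Of 13 tested genes in the bipolar list these 2 passed, both with a higher effect in Opn4 cells. Summed RPKM of the 16 bipolar genes was 248 to 330 in Opn4 sham, 192 to 537 in Opn4 crush, 248 to 363 in HB9 sham and 115 to 168 in HB9 crush libraries. The part of bipolar RNA in these results was not tested.

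Cd86, a co-stimulatory ligand of antigen-presenting cells, was at 16.6, 5.65 and 5.65 RPKM in Opn4 crush libraries, at 0.0254 RPKM or less in Opn4 sham, and listed at 0 in all 6 HB9 libraries (difference 3.19 ± 0.59, adjusted p = 0.0278). It lost its call without any 1 Opn4 sham or HB9 library (up to 0.0813; other settings up to 0.0846). The summed microglia genes of Opn4 crush libraries, at 50.6 to 63.1 RPKM, overlapped those of Opn4 sham. Rgs4, which speeds the shut-off of G protein signals, was the 1 member that rose in Opn4 and fell in HB9 cells. It was at 1194, 1189 and 1054 RPKM in Opn4 sham and 1875, 2512 and 3116 RPKM in Opn4 crush libraries, and at 1302, 1543 and 1440.1 RPKM in HB9 sham and 555, 559 and 631 RPKM in HB9 crush libraries. Sham libraries of both classes lay close, and crush moved them apart without overlap. The effects were 1.10 ± 0.16 and -1.29 ± 0.16 (difference 2.39 ± 0.23, adjusted p = 0.00191, passing in all 22 alternatives).

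Genes that fell after crush in HB9 cells included a pair of nicotinic receptor subunits and a few markers of direction-selective cells. Chrna6 (chromosome 8, 27403214 to 27413944), the alpha6 subunit of the nicotinic acetylcholine receptor, was at 686, 693 and 593 RPKM in HB9 sham and 54.8, 35.2 and 43 RPKM in HB9 crush libraries. Opn4 cells held 0.105, 2.94 and 6.73 RPKM after sham and 4.85, 12.9 and 13.8 RPKM after crush, which overlapped. The HB9 effect was -3.88 ± 0.57 (adjusted p = 0.00114) and the Opn4 effect 1.72 ± 0.57 (adjusted p = 0.185), a difference of 5.60 ± 0.80 (adjusted p = 0.00763). Chrnb3 (chromosome 8, 27368711 to 27399729), the beta3 subunit and the neighbouring gene, was at 341, 474 and 549 RPKM in HB9 sham and 74.7, 65 and 106 RPKM in HB9 crush libraries. Its Opn4 libraries were at 0.171, 12.3 and 1.86 RPKM after sham and 24.7, 16.8 and 15 RPKM after crush, with no overlap, and the difference was 4.92 ± 0.89 (adjusted p = 0.0255). In both genes the classes came nearer each other after crush, and HB9 cells still held more. They were the 2 members among 9 tested nicotinic subunits, whose median effects were 0.08 in Opn4 and -1.27 in HB9 cells. In HB9 cells 3 of the 9 fell, where 2.57% of all genes did. Chrna6 held without any 1 library (adjusted p up to 0.0322) and was lost with a pseudocount of 0.1 (0.065). Chrnb3 was lost without Opn4 sham 3, Opn4 crush 1, HB9 sham 2, HB9 sham 3 or any 1 HB9 crush library (up to 0.0779; other settings up to 0.0964).

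Of 14 tested markers of ON-OFF direction-selective cells, 3 had a higher effect in Opn4 cells and 0 a lower one, with median effects of -0.34 in Opn4 and -1.26 in HB9 cells. Beside Chrna6 these were Mnx1 and Pcdh8. Mnx1 is the homeobox gene whose regulatory sequence drives the green transgene. It was at 20.9, 41.7 and 34 RPKM in HB9 sham and 2.96, 1.13 and 3.06 RPKM in HB9 crush libraries, and at 0.144 RPKM or less in the Opn4 libraries (difference 3.24 ± 0.60, adjusted p = 0.0281). Pcdh8, a protocadherin, was at 154, 181 and 218 RPKM in HB9 sham and 22.4, 35.6 and 16 RPKM in HB9 crush libraries, against 17.4 to 36.8 RPKM in the 6 Opn4 libraries (difference 2.39 ± 0.42, adjusted p = 0.0204). After crush the HB9 levels of Pcdh8 overlapped the Opn4 levels. The call of Mnx1 ended without Opn4 sham 3, HB9 sham 2, HB9 sham 3 or any 1 HB9 crush library (up to 0.0849; other settings up to 0.517), and that of Pcdh8 without Opn4 sham 3, HB9 sham 2, HB9 sham 3 or HB9 crush 1 (up to 0.0691).

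Of 15 tested photosensitive-cell markers, 2 had a lower effect in Opn4 cells and 0 a higher one, and the other 13 did not pass the test of the difference. Eomes, a T-box transcription factor of photosensitive ganglion cells, was at 422, 322 and 408 RPKM in Opn4 sham and 200.2, 222 and 239 RPKM in Opn4 crush libraries. In HB9 cells it was at 1.68, 1.19 and 0 RPKM after sham and 6.88, 7.9 and 9.45 RPKM after crush. Its effects were -0.79 ± 0.32 (adjusted p = 0.29) and 2.32 ± 0.32 (difference -3.11 ± 0.46, adjusted p = 0.00839), and Adcyap1 was the other of the 2. Eomes held without any 1 library (up to 0.0324), but not with a pseudocount of 0.1 (0.117) or voom (0.12). Zcchc12, a zinc finger protein of neurons, rose in HB9 cells from near 0 in the same way, while its Opn4 crush libraries lay above its Opn4 sham libraries. It was at 285, 231 and 319.7 RPKM in Opn4 sham, 409.7, 446 and 534 RPKM in Opn4 crush, 4.79, 0.0178 and 0 RPKM in HB9 sham and 84.2, 120.2 and 138 RPKM in HB9 crush libraries (difference -5.23 ± 0.73, adjusted p = 0.00742). It held without any 1 library (up to 0.0269), and a pseudocount of 0.1 ended the call (0.063). Chl1, an adhesion molecule of the L1 family, was at 50.5 to 115 RPKM in Opn4 libraries. In HB9 cells it was at 0.023 RPKM or less after sham and 7.98, 1.74 and 2.7 RPKM after crush (difference -2.80 ± 0.58, adjusted p = 0.0459), and it lost the call without any 1 library other than HB9 crush 2 (up to 0.105; other settings up to 0.104).

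Slc12a5, Fxyd7 and Hpca fell in HB9 cells, and Fxyd7 fell in Opn4 cells too. Slc12a5 encodes KCC2, the chloride exporter that makes GABA inhibitory. It was at 157, 183 and 197 RPKM in HB9 sham and 30.6, 37.2 and 31.6 RPKM in HB9 crush libraries, while its Opn4 libraries overlapped at 78.5 to 106 RPKM after sham and 80.5 to 107 RPKM after crush. The effects were -2.40 ± 0.19 and -0.01 ± 0.19 (difference 2.39 ± 0.27, adjusted p = 0.00263). Fxyd7, a regulator of the sodium pump, fell in both classes, from 306, 238 and 265 RPKM to 127, 87.2 and 109.7 RPKM in Opn4 cells and from 400.5, 359 and 394 RPKM to 37.5, 25 and 13.4 RPKM in HB9 cells. Its effects were -1.32 ± 0.29 and -3.98 ± 0.29 (difference 2.66 ± 0.41, adjusted p = 0.0105). Hpca, the calcium sensor hippocalcin, was at 208, 218 and 269.7 RPKM in HB9 sham and 28.4, 38.8 and 25.1 RPKM in HB9 crush libraries, against 167 to 184 RPKM after sham and 93.4 to 144 RPKM after crush in Opn4 cells, which did not overlap (difference 2.27 ± 0.29, adjusted p = 0.005). Slc12a5, Fxyd7 and Hpca passed in all 22 alternatives.

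Of 41 tested potassium channel genes 2 were members, Kcnab2 and Kcnc1. The list's median effect was 0.00 in Opn4 and -0.60 in HB9 cells. In HB9 cells 8 of the 41 fell, where 2.57% of all genes did. Kcnc1, the Kv3.1 channel of fast-spiking neurons, was at 44.8, 47.9 and 56.2 RPKM in HB9 sham and 16.8, 15.6 and 17.3 RPKM in HB9 crush libraries, against 10.1 to 19.7 RPKM in Opn4 libraries (difference 2.00 ± 0.38, adjusted p = 0.0291). Kcnab2, a channel beta subunit, gave a difference of 1.30 ± 0.24 (adjusted p = 0.0291). Grin1, the obligatory NMDA receptor subunit, was at 109.6, 112 and 98.5 RPKM in HB9 sham and 49.9, 45 and 59.7 RPKM in HB9 crush libraries. It was at 28.3, 42.2 and 43 RPKM in Opn4 sham and 56, 61.3 and 71.8 RPKM in Opn4 crush libraries, which did not overlap (difference 1.78 ± 0.30, adjusted p = 0.0166). Grin1 overlaps the antisense gene E130003G02Rik, also a member, and reads of the pair cannot be told apart without strand. Rab3a, a vesicle GTPase, gave a difference of 1.07 ± 0.19 (adjusted p = 0.0216), and Nrn1, the membrane-bound growth factor neuritin, one of 1.24 ± 0.23 (adjusted p = 0.0285). Rab3a was the 1 member of 33 tested genes in the synaptic release list. That list did not hold the members Prrt2 and Rph3a, of the HB9 fall, or Doc2a, which fell in Opn4 cells. Nrn1 was the 1 member of 25 tested general ganglion cell genes.

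Calls of Kcnab2, Kcnc1, Grin1, Rab3a and Nrn1 were less stable. Grin1 was lost without HB9 sham 2 (adjusted p = 0.0625). Rab3a was lost without Opn4 sham 3, HB9 sham 1, HB9 sham 2, HB9 crush 1 or HB9 crush 3 (up to 0.0779). Kcnc1 was lost without Opn4 sham 3, Opn4 crush 3 or any 1 HB9 library (up to 0.0947). Kcnab2 was lost without the same 2 Opn4 libraries, any 1 HB9 sham library, HB9 crush 2 or HB9 crush 3 (up to 0.0905). Nrn1 was lost without Opn4 sham 1, Opn4 sham 2 or any 1 HB9 library (up to 0.083). None of the 30 tested sodium, calcium and HCN channel genes passed, with median effects of -0.28 in Opn4 and -0.75 in HB9 cells.

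Other members of the HB9 fall were near 0 in Opn4 cells or gave no call there. Mmp9, a matrix protease, was at 115, 114 and 141 RPKM in HB9 sham and 15.2, 12.2 and 12.6 RPKM in HB9 crush libraries, and at 5.93 RPKM or less in Opn4 libraries (difference 4.59 ± 0.88, adjusted p = 0.0318). It lies beside Slc12a5 on chromosome 2, from 164940780 to 164955850, with Slc12a5 from 164960816 to 164999727. Sstr4, a somatostatin receptor, was at 25, 24.5 and 21.9 RPKM in HB9 sham and 1.31, 1.28 and 4.1 RPKM in HB9 crush libraries, and was listed at 0 in all 6 Opn4 libraries (difference 3.05 ± 0.58, adjusted p = 0.0318). Neurod2, a neuronal transcription factor, was at 3.93, 2.97 and 5.83 RPKM in HB9 sham and 0.233, 0 and 0 RPKM in HB9 crush libraries. It was listed at 0 in all Opn4 sham and at 0.918, 0.527 and 2.18 RPKM in Opn4 crush libraries (difference 3.33 ± 0.56, adjusted p = 0.0173). Wnt2b, a secreted Wnt ligand, gave a difference of 3.32 ± 0.65 (adjusted p = 0.0359), Kctd4 one of 3.89 ± 0.75 (0.0318), Shroom2, which organizes actin, one of 3.40 ± 0.64 (0.0291), and Nrep one of 2.76 ± 0.57 (0.0459). All 4 fell in HB9 cells, by 3.26, 3.59, 3.54 and 2.64, and their Opn4 effects were 0.06, 0.30, -0.14 and 0.12.

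Neurod2 held without any 1 library (adjusted p up to 0.0487). The others lost their calls without any 1 library other than a few: Opn4 sham 3 and Opn4 crush 1 for Mmp9 (up to 0.0959; other settings up to 0.294), and HB9 crush 3 for Sstr4 (up to 0.0919; 0.194). For Wnt2b these were Opn4 sham 3, Opn4 crush 2, Opn4 crush 3 and HB9 crush 2 (up to 0.0924; 0.442), and for Kctd4 Opn4 crush 1, Opn4 crush 2, HB9 sham 2 and HB9 crush 2 (up to 0.0919; 0.191). For Shroom2 they were Opn4 sham 1, Opn4 crush 1, Opn4 crush 3 and HB9 crush 2 (up to 0.094; 0.114), and for Nrep Opn4 sham 3, Opn4 crush 3 and HB9 crush 2 (up to 0.13; 0.108).

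A smaller group fell after crush in Opn4 cells. Pex11a, which acts in the division of peroxisomes, was at 8.24, 5.28 and 3.57 RPKM in Opn4 sham and listed at 0 in all 3 Opn4 crush libraries. Levels in HB9 cells were 5.1, 4.42 and 6.23 RPKM after sham and 16.3, 11 and 21.7 RPKM after crush, which did not overlap. The effects were -2.68 ± 0.42 (adjusted p = 0.00806) and 1.43 ± 0.42 (adjusted p = 0.0641), a difference of -4.12 ± 0.59 (adjusted p = 0.00766, passing in all 22 alternatives). Mad2l1bp, a regulator of the mitotic checkpoint, was at 10.1, 10.1 and 20.4 RPKM in Opn4 sham and 0.261 RPKM or less in Opn4 crush libraries, against 4.72 to 18.4 RPKM in all 6 HB9 libraries (difference -4.04 ± 0.69, adjusted p = 0.0184). Ap5z1, a subunit of an endosomal adaptor complex, was at 18.9, 7.87 and 20.4 RPKM in Opn4 sham and 0.121, 2.85 and 0.0495 RPKM in Opn4 crush libraries (difference -4.41 ± 0.88, adjusted p = 0.0392). Mad2l1bp lost its call without HB9 sham 2, HB9 crush 1 or HB9 crush 2 (up to 0.0623), and Ap5z1 without any 1 library other than Opn4 sham 2, Opn4 crush 2 and HB9 sham 3 (up to 0.114; other settings up to 0.113).

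Siah3 and Csdc2, named after their values were seen, were the 2 members that fell in Opn4 and rose in HB9 cells, and both passed in all 22 alternatives. Siah3, a relative of the ubiquitin ligases Siah1 and Siah2, was at 4.63, 1.98 and 4.11 RPKM in Opn4 sham and at 0.128 RPKM or less in Opn4 crush libraries. In HB9 cells it stood at 3.4, 2.78 and 1.39 RPKM after sham and 10.7, 11.5 and 14.5 RPKM after crush (difference -4.03 ± 0.60, adjusted p = 0.00875). Csdc2, an RNA-binding protein with a cold shock domain, was at 202, 174 and 149 RPKM in Opn4 sham, 114, 81.6 and 95.2 RPKM in Opn4 crush, 158, 184 and 195 RPKM in HB9 sham and 291, 257 and 319 RPKM in HB9 crush libraries. Its sham libraries overlapped between the classes and its crush libraries did not (difference -1.54 ± 0.25, adjusted p = 0.0141).

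Sstr2 and Igfbp3 were lower in Opn4 crush than in most Opn4 sham libraries and rose in HB9 cells. Sstr2, a somatostatin receptor, was at 15.2, 13.6 and 3.21 RPKM in Opn4 sham, 0, 6.15 and 0 RPKM in Opn4 crush and 3.53, 26.3 and 30.3 RPKM in HB9 crush libraries, and was listed at 0 in HB9 sham (difference -6.35 ± 1.25, adjusted p = 0.036). Igfbp3, which binds insulin-like growth factors, gave a difference of -4.11 ± 0.78 (adjusted p = 0.031), with 3.89, 10.7 and 8.04 RPKM in HB9 crush and 4.06 RPKM or less in all other libraries. Flrt3, an adhesion protein and ligand of axon guidance receptors, stood at 133, 89.9 and 113 RPKM in HB9 crush and 14.1 to 57 RPKM in Opn4 libraries, against 8.44, 4.01 and 0.693 RPKM in HB9 sham (difference -4.0 ± 0.79, adjusted p = 0.0359). Each was fragile: Sstr2 was lost without any 1 library other than Opn4 sham 3, Opn4 crush 2 and HB9 crush 1 (up to 0.0953; other settings up to 0.104). Igfbp3 was lost without any other than Opn4 sham 1, Opn4 sham 2 and HB9 crush 1 (up to 0.0868; 0.132), and Flrt3 without any other than Opn4 crush 3, HB9 sham 1 and HB9 sham 3 (up to 0.0957; 0.088).

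**Figure D4:**
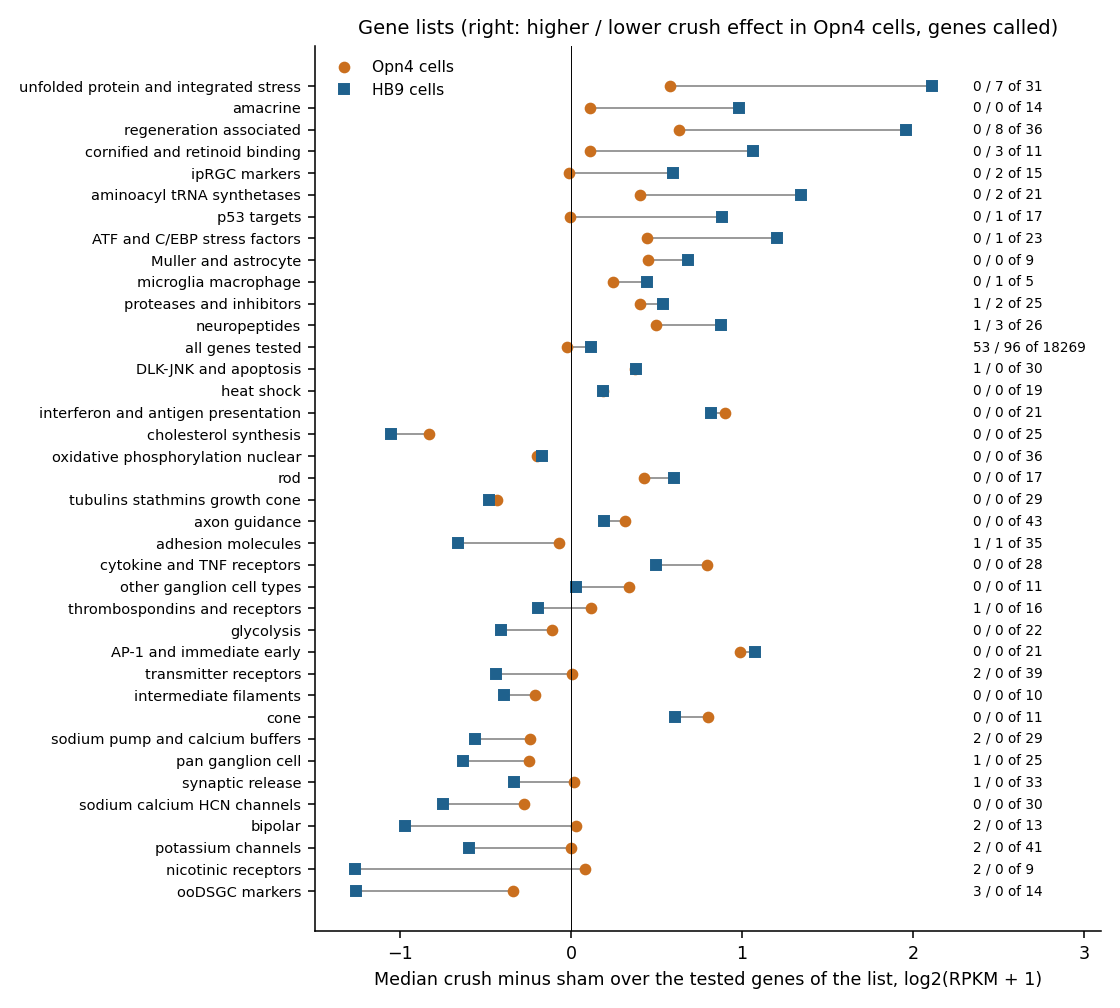
Median crush minus sham over the tested genes of each list, in log2(RPKM + 1), for Opn4 cells (circles) and HB9 cells (squares), ordered by the median difference of effects; the numbers at the right give the genes with a higher and a lower effect in Opn4 cells, of those tested. The unfolded protein list (0 and 7 of 31), the amacrine list (0 and 0 of 14) and the regeneration list (0 and 8 of 36) lie near the top. The nicotinic list (2 and 0 of 9) and the direction-selective list (3 and 0 of 14) lie at the foot.

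The lists of cholesterol synthesis, glycolysis, nuclear-encoded respiratory chain, tubulins and growth cone proteins, intermediate filaments, heat shock, interferon and antigen presentation, cytokine receptors and axon guidance had 0 members. Cholesterol synthesis genes, for example, had median effects of -0.83 in Opn4 and -1.05 in HB9 cells, and 0 of 25 passed. Rod, cone, amacrine and Muller glia lists also had 0. The median difference of the 14 tested amacrine genes was -1.24, and 10 of them were below 0. Of all 18269 genes tested, 10364 were below 0. Of 23 tested ATF and C/EBP factors 1 was a member (Atf3), of 25 proteases and inhibitors 3 (Prss12 and Ecel1 lower, Mmp9 higher), and of 35 adhesion genes 2 (Chl1 lower, Pcdh8 higher). The list of transmitter receptors held 2 of 39 (Grin1 and Grik1), and that of sodium pump and calcium-binding genes 2 of 29 (Fxyd7 and Hpca), all 4 higher. The plot of gene lists sets these medians beside those of all genes tested.

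The classes were also set side by side within each surgery; these comparisons share their libraries with the difference of effects and are described only. After sham 68 members differed between the classes (11.8% of all genes tested did), and after crush 114 did (12.7%). The class difference was smaller after crush than after sham in 55 members, where it was so in 48.8% of all genes. In 9 members (5.82% of all genes were higher in Opn4 cells after sham and 7.6% lower after crush), among them Slc7a3, Slc7a5, Slc3a2, Lix1, Flrt3 and Sstr2, the call went from higher in Opn4 cells after sham to lower after crush. In 4 members, Slc12a5, Nrep, Htr1d and Hcfc1r1, it went from lower to higher (5.93% of all genes were lower after sham and 5.12% higher after crush). Another 63 members, among them Sprr1a, Crh, Ucn, Atf3 and Ecel1, were lower in Opn4 cells after crush with no call after sham. Of all genes, 7.6% were lower after crush whatever their call after sham. The share of all genes with each pair of calls was not counted, so these counts cannot be set against it. Eomes, Zcchc12, Adcyap1, Chl1 and Thbs1 were higher in Opn4 cells after both surgeries, and Chrna6, Chrnb3, Mnx1 and Mmp9 lower after both.

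**Figure D5:**
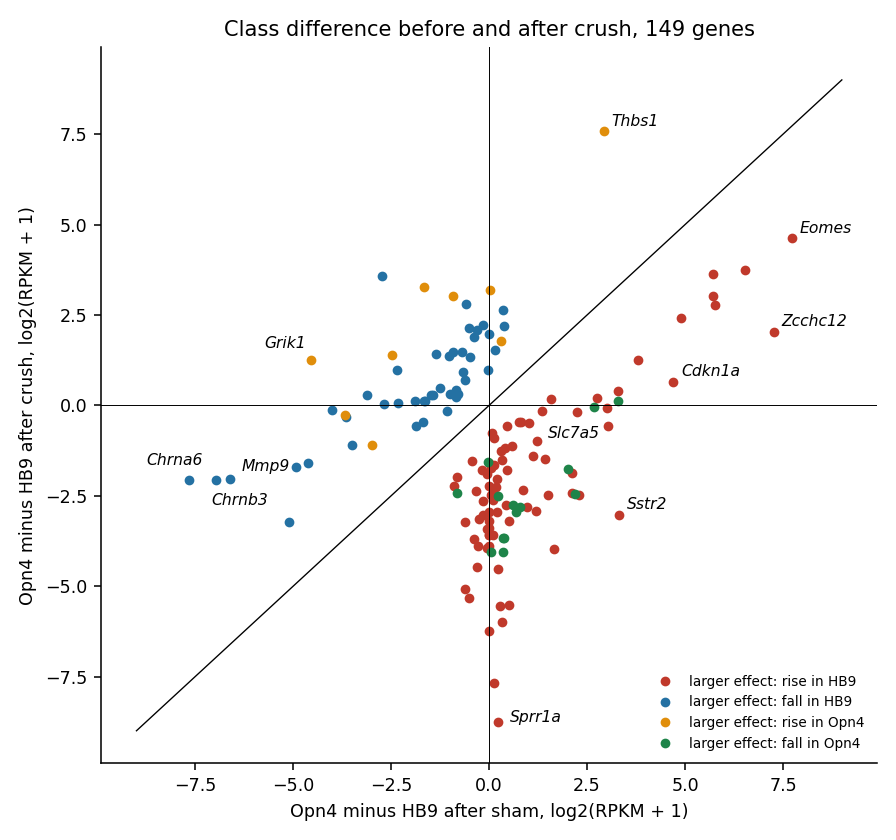
Opn4 minus HB9 after crush (vertical axis) against Opn4 minus HB9 after sham (horizontal axis), both in log2(RPKM + 1), with 1 point per member coloured by pattern; the diagonal marks a class difference that crush did not alter. Points of the HB9 rise lie below the diagonal, with Sprr1a lowest, and points of the HB9 fall and the Opn4 rise lie above it, with Thbs1 highest.

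Of the 149 members, 130 were protein-coding genes and 19 were not, of which 8 were pseudogenes. Hspa9 with Hspa9-ps1, Timm8a1 with Gm9797, and Cd1d1 with Cd1d2 have near-identical sequence or values, so reads of each pair may not be told apart. The pseudogenes Gm11578 and Gm7389 had values like those of the members Lix1 and Xpot, with the same doubt. Gadd45a overlaps the member E230016M11Rik on the opposite strand of chromosome 6, and reads of that pair cannot be told apart without strand. The plot of levels by library shows 16 members in full.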

How the data were processed

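RNA from 12 pools of 30 hand-picked cells was sequenced, with 3 pools in each of 4 groups. The authors deposited 1 RPKM value per gene and library for 38887 Ensembl genes. Per the submitters' processing notes, TopHat2 2.0.11, Bowtie, edgeR 3.14.0 and build mm10 were used; the step each served is not given in the sources used here. Each RPKM fell on a whole multiple of 1 read for its gene length, with 100% of values within 0.01 read of a whole number. The recovered reads summed to 226.7% to 244.2% of the scaling totals, for a reason the files do not give, and were used in 1 alternative alone. The libraries were amplified with no molecular identifiers named, so reads do not count molecules.

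Values were tested as log2(RPKM + 1) for genes that reached an RPKM of 1 in 3 or more libraries, with limma 3.58.1 in R 4.3.3 (1 model of 4 group means, eBayes with a trend). Tests were two-sided, adjusted by the Benjamini-Hochberg method over 18269 genes, with a threshold of 0.05. The pseudocount of 1 shrinks the changes of genes whose RPKM is near 0. The fit was also run on simulated data, with effects planted only in genes above a set mean level. Genes near 0 in most libraries, such as Sprr1a, Crh and Ucn, lay below that level. The simulation therefore does not bear on calls of such genes, and its outcome is not given here. Replicate numbers did not pair the libraries: deviations of same-numbered libraries correlated at -0.022 to 0.081.

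The 22 alternatives for the difference of effects were a pseudocount of 0.1, no filter, a filter at an RPKM of 5, each library left out in turn, a replicate block, median-of-ratios scaling, weights per library or per class, a rod covariate, voom on recovered reads and, chosen after seeing the data, leaving out the 2 libraries that stood apart. "Other settings" in the text are those that leave out no single library. Members and gene lists were chosen with earlier results of these data known. Named genes were Sprr1a, Thbs1, Grik1, Chrna6, Atf3, Ecel1, Jun, Sox11, Gap43 and Crh, the 20 highest and 20 lowest differences with a given symbol, and members of the gene lists. Some genes chosen by these rules are not reported here. Genes with no given symbol, microRNAs and -ps copies were left out of the 20. IDs and positions of genes were copied from the deposited table. Promoters were matched to RefSeq (GRCm38.p6) by symbol.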

Additional observations from a re-analysis of the deposited data

Results flagged for a closer look

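The crush effect differed between the classes by the test of the difference itself in 149 genes, which is how the members were defined. Among the named genes, the effect was lower in Opn4 cells (log2 difference of effects) for Sprr1a (-8.98), Crh (-7.80), Sstr2 (-6.35), Prss12 (-6.33), Ucn (-6.23), Cd68 (-6.04), Crabp2 (-5.81), Gpnmb (-5.62), Zcchc12 (-5.23), Cdsn (-4.82), Slc7a3 (-4.76), Taf7l (-4.74), Lix1 (-4.54), Lgals3 (-4.47), Ap5z1 (-4.41), Cyb5r2 (-4.17), Pex11a (-4.12), Igfbp3 (-4.11), Mad2l1bp (-4.04), Cdkn1a (-4.04), Ecel1 (-3.68) and Atf3 (-3.18).

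The effect was higher in Opn4 cells for Scgn (6.31), Grik1 (5.80), Chrna6 (5.60), Chrnb3 (4.92), Thbs1 (4.66), Mmp9 (4.59), Kctd4 (3.89), Nptx2 (3.89), Shroom2 (3.40), Neurod2 (3.33), Wnt2b (3.32), Mnx1 (3.24), Cd86 (3.19), Sstr4 (3.05), Nrep (2.76), Fxyd7 (2.66), Pcdh8 (2.39), Slc12a5 (2.39) and Rgs4 (2.39). Groups of 3 libraries are too small for a check of single outlying libraries.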

How the results depend on the processing

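Of the 149 members, 30 passed in all 22 alternatives and 56 in fewer than 11 of them. The number of genes with a class-dependent effect was 90 with a pseudocount of 0.1 (85 of them members) and 98 with a replicate block (94 members), although the numbers do not pair the libraries. Voom on recovered reads called 130 genes, but only 79 of them were members. With 1 library left out the number called ranged from 61 to 156, and fell by over 1.5 times without Opn4 sham 3 (93), HB9 sham 1, 2 or 3 (90, 61 and 78) or HB9 crush 1, 2 or 3 (81, 90 and 81). The crush effect in Opn4 cells was called in 203 genes, and in 87 with weights per library, 67 with weights per class and 13 with the Opn4 libraries alone. Leaving out 1 library gave 139 to 224, and the replicate block 151. In HB9 cells it was called in 1172 genes, against 3025, 2515 and 1939 under the same 3 settings, 645 to 1393 with 1 library left out and 1072 with the replicate block. The cause of these shifts was not tested, beyond the fewer samples in the fits that leave libraries out. Single named genes kept their side of the threshold in 1073 refits and lost it in 376, and 0 reversed in sign. With 3 pools a group, 2351 genes had an unadjusted p under 0.05, and the median standard error of a difference was 0.64, so differences of that size could not be detected for a typical gene. Values of genes near 0 RPKM depend most on the pseudocount.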

Other observations

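Several members of the HB9 fall outside the named groups had close replicates and passed in all 22 alternatives. They were chosen after their values were seen. Matk, a kinase that restrains Src-family kinases, was at 97.8, 99.8 and 85.2 RPKM in Opn4 sham, 103, 133 and 124 RPKM in Opn4 crush, 109.5, 87.8 and 86.6 RPKM in HB9 sham and 24.9, 39 and 27.4 RPKM in HB9 crush libraries (difference of effects 1.96 ± 0.29, adjusted p = 0.00875). Prrt2, a presynaptic protein, was at 111 to 157 RPKM in all 6 Opn4 libraries and went from 101, 91.9 and 117 RPKM to 21.7, 30.6 and 32 RPKM in HB9 cells (1.82 ± 0.29, adjusted p = 0.0127). Htr1d, a serotonin receptor, went from 52.5, 50 and 60.3 RPKM to 13.9, 11.6 and 9.15 RPKM in HB9 cells and was at 20.5 to 42 RPKM in the 6 Opn4 libraries (2.39 ± 0.39, adjusted p = 0.0147). In these 3 genes the HB9 crush libraries were the lowest of all groups.

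Kif3a, a subunit of the kinesin-2 motor, went the other way. It was at 169, 192 and 163 RPKM in HB9 sham and 377, 398 and 469.6 RPKM in HB9 crush libraries. In Opn4 cells it was at 238, 202 and 204 RPKM after sham and 195, 178 and 144 RPKM after crush, and the Opn4 effect did not pass (-0.32 ± 0.16, adjusted p = 0.38; difference -1.56 ± 0.22, adjusted p = 0.00763). Ptpn5, the neuronal phosphatase STEP, rose in HB9 cells from 3.46, 2.81 and 1.03 RPKM to 22.3, 20.7 and 20.6 RPKM, a level that overlapped the 13.6 to 28.3 RPKM of the Opn4 libraries (difference -3.10 ± 0.51, adjusted p = 0.016).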
